A study of Mus musculus with 16 samples.

Results

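The 10 genes described here encode G protein-coupled serotonin (5-hydroxytryptamine, 5-HT) receptors of the mouse, and they were taken by gene symbol from a list of receptor names. They are 10 of the 53779 genes in the isoform table and are represented there by 26 isoforms, whose values were summed for each gene. Primary cortical neurons from wild-type (wt) mouse embryos of day 15 were grown in culture, and RNA was sequenced to ask how tianeptine (TIA), an atypical antidepressant, changes the response to oxygen-glucose deprivation (OGD), a culture model of ischemia. The 16 cultures formed 4 groups of 4. CONTROL-VEH cultures received vehicle and sham treatment, and CONTROL-TIA cultures received 10 μM TIA and sham treatment on the same schedule. OGD-VEH and OGD-TIA cultures received vehicle or 10 μM TIA for 24 h, then 3 h of OGD. All RNA was taken after 6 h of reoxygenation. Pretreatment began at 8 days in vitro.

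Serotonin reaches the cortex through axons of raphe neurons and acts on receptors that differ in the G protein they use. The 5-HT1 and 5-HT5 receptors act mainly through Gi/o, which lowers cyclic AMP, and 5-HT1A also opens GIRK potassium channels. The 5-HT2 receptors act through Gq/11 and phospholipase C, which releases calcium from stores, and the 5-HT4, 5-HT6 and 5-HT7 receptors act through Gs, which raises cyclic AMP.

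Values are FPKM, read numbers divided by transcript length and by the number of mapped reads, and so can be compared between genes. Estimated depth was 19.6 to 25.5 M reads per culture. At that depth the estimated reads on a receptor had medians from 8.0 for *Htr5b* to 263.3 for *Htr2c*, and *Htr1d*, *Htr4* and *Htr5b* had as few as 3.3, 5.2 and 3.5 reads in single cultures. The neuron markers (9 of 9 at a mean of 0.5 FPKM or more) were in place, with a summed level of 2860 to 3330 FPKM in CONTROL-VEH. Markers of serotonergic neurons were close to absent: none of *Fev*, *Tph2* and *Slc6a4* reached a mean of 0.5 FPKM, and their sum was 0.318 to 0.542 FPKM in CONTROL-VEH. Markers of astrocytes, the oligodendrocyte lineage and progenitors were also present, and 6 of 8 microglia markers had means below 0.1 FPKM.

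The base sequence that tells isoforms of the serotonin 2C receptor apart is shown first, because *Htr2c* is a receptor whose messenger RNA is changed after transcription. These 95 bases end exon 5 of the 6 exons of Htr2c-201 (GRCm38, chrX:147169676-147169770, plus strand, coding sequence) and are absent from Htr2c-207, which is spliced from a donor site inside the exon. Capitals mark the 13 bases within which adenosines are known to be edited to inosine.

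Htr2c exon 5, last 95 bases: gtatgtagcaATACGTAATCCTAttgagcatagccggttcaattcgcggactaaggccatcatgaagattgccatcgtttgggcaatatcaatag

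The annotated coding sequence holds 1377 bases in Htr2c-201 and Htr2c-202, which keep the stretch, and 516 bases in Htr2c-207, which lacks it. The short form is known to encode a truncated receptor that does not bind serotonin.

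Promoter windows from 250 bases before to 50 bases after the start, from RefSeq on GRCm38.p6, were found for 8 of the 10 genes (10 windows). Those of *Htr5a* and *Htr7*, the receptors with the largest differences after OGD averaged over both arms, and of *Htr6*, the one with the smallest, are shown on the strand of the gene. Capitals mark the core of the hypoxia response element, the letters ACGTG or, on the other strand, CACGT.

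Htr5a, chr5:27841697-27841996, plus strand: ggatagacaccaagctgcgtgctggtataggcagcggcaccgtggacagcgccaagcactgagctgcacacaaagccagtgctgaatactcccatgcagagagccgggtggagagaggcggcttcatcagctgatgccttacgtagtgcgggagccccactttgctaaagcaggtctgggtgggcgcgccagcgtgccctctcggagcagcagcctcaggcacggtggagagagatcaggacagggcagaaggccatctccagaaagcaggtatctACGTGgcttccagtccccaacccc

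Htr7, chr19:36057311-36057610, minus strand: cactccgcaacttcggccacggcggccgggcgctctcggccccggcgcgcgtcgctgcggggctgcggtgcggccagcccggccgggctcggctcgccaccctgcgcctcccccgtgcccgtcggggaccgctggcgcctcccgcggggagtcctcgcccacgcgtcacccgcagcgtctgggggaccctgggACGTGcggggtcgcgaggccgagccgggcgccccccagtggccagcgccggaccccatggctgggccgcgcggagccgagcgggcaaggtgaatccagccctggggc

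Htr6, chr4:139075521-139075820, minus strand: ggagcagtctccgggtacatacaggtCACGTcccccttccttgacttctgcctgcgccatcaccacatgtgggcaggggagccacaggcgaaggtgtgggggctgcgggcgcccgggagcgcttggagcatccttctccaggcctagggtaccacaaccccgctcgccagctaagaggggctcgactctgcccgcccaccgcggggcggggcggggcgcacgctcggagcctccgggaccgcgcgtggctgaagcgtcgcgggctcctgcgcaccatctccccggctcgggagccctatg

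Each of the 3 windows shown held 1 match. It began 26 bases after the RefSeq start in *Htr5a*, 57 bases before it in *Htr7* and 224 bases before it in *Htr6*. The *Htr5a* window ends at 27841996, before the gene start at 27842149 in GENCODE that is given below. *Htr1d* and *Htr6* each have a second window among the 10. The second window of *Htr6*, at chr4:139074740-139075039 and not shown, held 0 matches. The same core was in 5 of the 10 receptor windows, those of *Htr1a*, *Htr1b*, *Htr5a*, *Htr6* and *Htr7*, and in 19.6% of 32851 windows of all genes. The GC box GGGCGG was in 5 of 10 receptor windows (35.7% of all windows). The AP-1 site TGACTCA (5.2% of all windows), the cyclic AMP response element TGACGTCA (1.79%) and TATAAA (13.6%) were in 0 of 10, with both strands searched. The window of *Htr7* was 81.0% G and C, and the windows shown of *Htr5a* and *Htr6* 61.3% and 71.0%. A match says only that the letters are in the window.

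In CONTROL-VEH cultures the receptors fell into a group with levels above 0.5 FPKM and a group below. *Htr6* was highest at 3.07 ± 0.239 FPKM (SD, n = 4, as throughout), with *Htr2c* at 3.03 ± 0.178, *Htr1a* at 2.34 ± 0.260, *Htr5a* at 1.77 ± 0.343, *Htr7* at 1.30 ± 0.197, *Htr2a* at 1.28 ± 0.147 and *Htr1b* at 0.801 ± 0.102 FPKM. *Htr1d* (0.282 ± 0.0595), *Htr4* (0.281 ± 0.00545) and *Htr5b* (0.238 ± 0.0911) were lowest. In this order the culture ranges of neighbours overlapped for *Htr6* and *Htr2c*, for *Htr5a*, *Htr7* and *Htr2a*, and for the 3 lowest genes. Every other pair of neighbours was separate. By their means, *Htr6*, *Htr2c*, *Htr1a* and *Htr5a* were the 4 highest, in this order, in all 4 groups. In CONTROL-TIA and OGD-TIA only *Htr6* and *Htr2c* were separate among these neighbours, and in OGD-VEH all of them overlapped. In OGD-VEH cultures 10 and 11 *Htr1a* exceeded *Htr2c* (1.02 and 1.32 against 0.731 and 0.962 FPKM). *Htr2c* was higher in cultures 9 and 12, at 3.49 FPKM in culture 9. Together the 10 genes summed to 14.4 ± 0.520 FPKM in CONTROL-VEH and 15.5 ± 1.21 in CONTROL-TIA, against 8.23 ± 3.19 in OGD-VEH and 11.3 ± 2.51 in OGD-TIA.

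**Figure D1:**
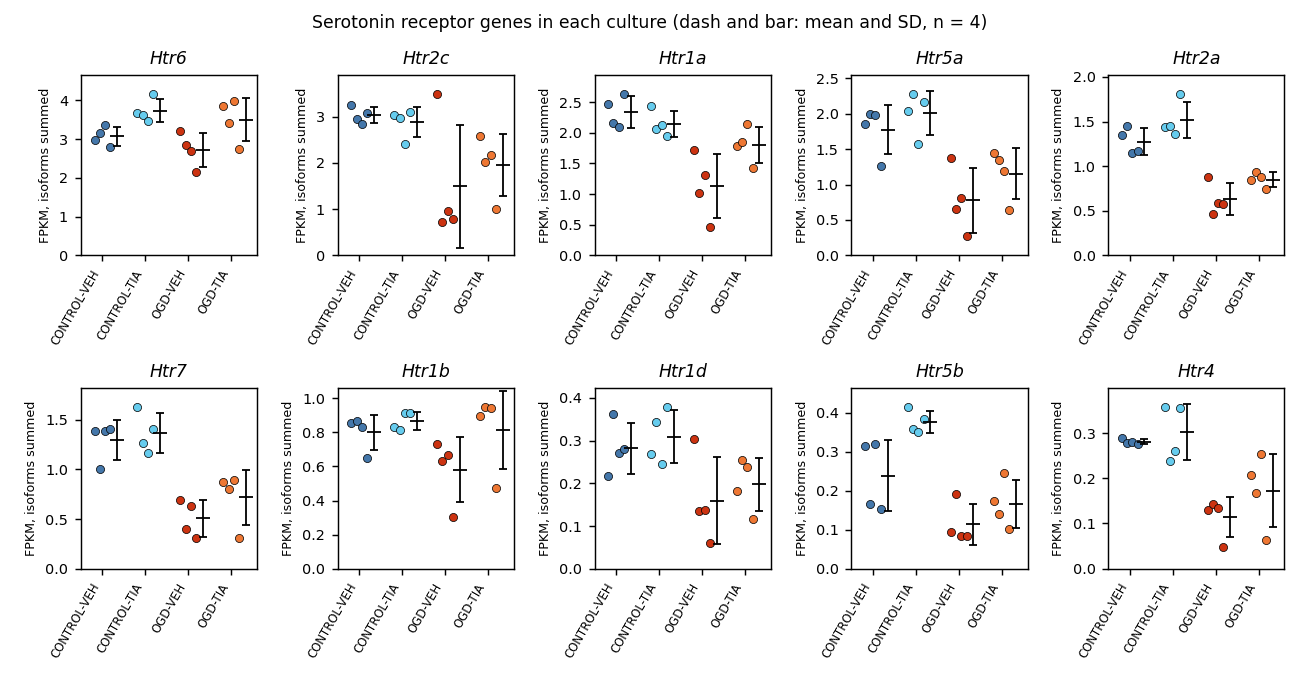
FPKM of each of the 10 receptor genes (vertical axis, from 0, scaled for each gene) in the 4 groups, with 1 dot per culture and the mean and SD (n = 4) beside the dots. *Htr2a* and *Htr7* have all 8 OGD dots below all 8 control dots, while the dots of *Htr6* lie between 2.15 and 4.16 FPKM and overlap.

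OGD was compared with control in vehicle cultures, in TIA cultures and as the average of both arms. Over both arms, 5 of the 10 receptors passed an adjusted p of 0.05 with lower levels after OGD among genes that met the minimum (a mean of 0.5 FPKM or more), and 13.7% of the 16342 genes tested did so. They were *Htr1a*, *Htr2a*, *Htr2c*, *Htr5a* and *Htr7*. Of the 3 genes under that minimum, *Htr4* and *Htr5b* passed in the same fit without it and *Htr1d* did not. Only *Htr5a* and *Htr7* also had a log2 fold change of -1 or less and so met both criteria for a differentially expressed gene (DEG), against 2.0% of all genes with lower levels. The *Htr5a* call, at -1.01, was lost with a pseudocount of 1 (-0.58), with array quality weights (-0.93) and in 7 of the 16 fits that left out 1 culture (cultures 1, 2, 3, 6, 8, 12 and 16), and that of *Htr7* in both of these settings and without culture 12 or 16, always by the size of the change and not by the adjusted p. All 10 log2 fold changes were below 0, with a median of -0.745 where the median of all genes was 0.08. No receptor passed through its controls alone, since the 7 above the minimum had means above 0.5 FPKM in every group.

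In the separate arms fewer receptors passed. *Htr7* was the only DEG of the 10 between OGD-VEH and CONTROL-VEH (limma, padj = 0.0461), where 1.68% of 16376 genes were called lower. None of the 10 was a DEG between OGD-TIA and CONTROL-TIA, a comparison in which limma called 0.0% of 16273 genes. That share belongs to limma on FPKM. With DESeq2 and the same thresholds, the paper did report DEGs in this comparison. An unadjusted p under 0.05 was found there for 4 of the 10 receptors and for 19.5% of the genes at or above the minimum. *Htr5b*, among these 4, was under the minimum and was read from the fit without it. The groups did not overlap, with OGD lower, for 4 of 10 receptors in the vehicle arm and for 4 of 10 in the TIA arm. Among genes at or above the minimum this held for 9.94% and 6.7%. *Htr4* in the vehicle arm and *Htr5b* in the TIA arm were under the minimum, so the counts and shares cover unlike sets. *Htr2a* and *Htr7* were the 2 receptors with all 8 OGD cultures below all 8 controls, which held for 2.4% of the genes at or above the minimum. In bulk RNA, fewer cells that express a receptor and less of its RNA per cell cannot be told apart.

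**Figure D2:**
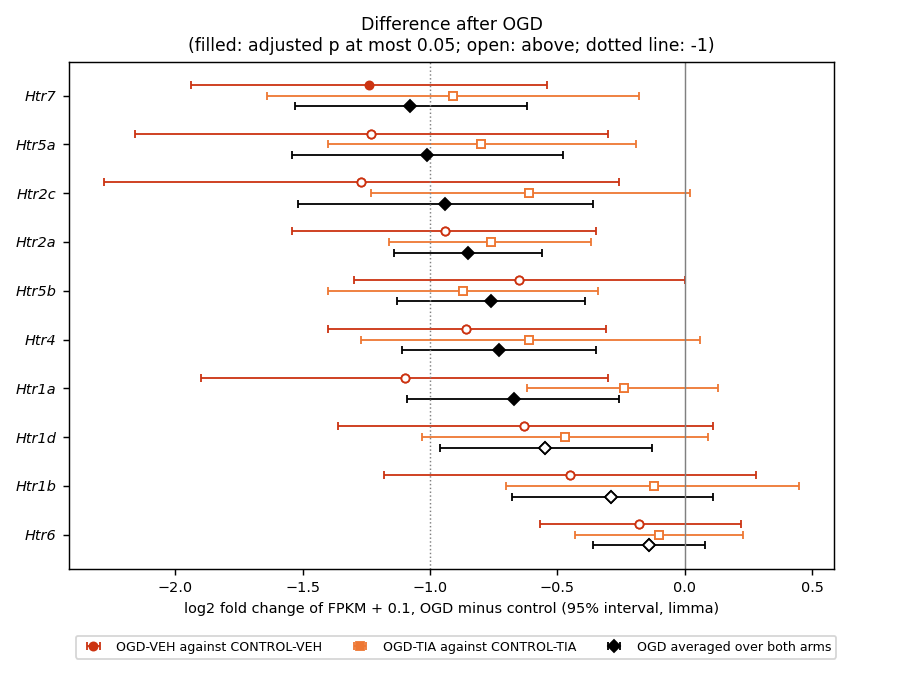
Log2 fold change (horizontal axis, on the scale of log2 of FPKM + 0.1, OGD minus control) with its 95% interval from limma for each receptor in the vehicle arm, the TIA arm and the average of both. Filled symbols have an adjusted p of at most 0.05: they are *Htr7* in the vehicle arm and 7 receptors in the average, ordered from *Htr7* at -1.08 to *Htr6* at -0.14, which is open.

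Among the Gi/o-coupled receptors, *Htr5a*, *Htr5b* and *Htr1a* fell over both arms (*Htr5b* in the fit without the minimum), and *Htr1b* and *Htr1d* did not pass. *Htr5a* encodes the 5-HT5A receptor and lies on chromosome 5 (27842149 to 27855088, plus strand). It measured 1.86, 1.99, 1.98 and 1.27 FPKM in the CONTROL-VEH cultures and 1.38, 0.657, 0.805 and 0.279 FPKM in the OGD-VEH cultures. In the TIA arm it measured 2.04, 2.28, 1.57 and 2.17 FPKM in controls and 1.44, 1.35, 1.19 and 0.637 FPKM after OGD. The TIA groups were separate, whereas culture 9 of OGD-VEH lay above the lowest vehicle control. *Htr5a* fell by 1.01 ± 0.25 (SE) on the log2 scale over both arms (limma, padj = 0.00876, and p = 0.000816 by the exact permutation test). The log2 fold change was -1.23 in the vehicle arm (limma, padj = 0.078) and -0.80 in the TIA arm (limma, padj = 0.182).

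*Htr1a* encodes 5-HT1A, the receptor that inhibits firing when serotonin binds and that is found on raphe and on cortical and hippocampal neurons. The gene has 1 exon on chromosome 13 (105443639 to 105448122, plus strand). CONTROL-VEH cultures had 2.48, 2.15, 2.09 and 2.63 FPKM and OGD-VEH cultures 1.72, 1.02, 1.32 and 0.469 FPKM, without overlap. CONTROL-TIA cultures had 2.44, 2.06, 2.12 and 1.94 FPKM and OGD-TIA cultures 1.79, 1.85, 2.14 and 1.43 FPKM, and these groups overlapped. OGD cultures thus averaged 48.4% of control with vehicle and 84.3% with TIA. *Htr1a* fell by 0.67 ± 0.19 over both arms (limma, padj = 0.0183, exact permutation p = 0.00163). Its log2 fold change was -1.10 ± 0.35 in the vehicle arm (limma, padj = 0.0709) and -0.24 ± 0.16 in the TIA arm (limma, padj = 0.425). The difference between the arms was 0.86 with a 95% interval of 0.03 to 1.69, which had an unadjusted p of 0.0437 in limma and did not pass the adjustment over all genes (padj = 0.723).

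*Htr1b*, on chromosome 9 (81628291 to 81633828, minus strand), encodes a receptor of axon terminals that inhibits transmitter release. It ranged from 0.650 to 0.868 FPKM in CONTROL-VEH, 0.301 to 0.729 in OGD-VEH, 0.811 to 0.916 in CONTROL-TIA and 0.473 to 0.947 in OGD-TIA. Both pairs overlapped, and the log2 fold change over both arms was -0.29 with an interval of -0.68 to 0.11 (limma, padj = 0.253). *Htr1d*, on chromosome 4 (136423524 to 136444398, plus strand), encodes a second receptor of this type. It ranged from 0.217 to 0.378 FPKM in the controls of both arms and from 0.061 to 0.304 after OGD (-0.55 over both arms, limma without the minimum, padj = 0.0773).

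*Htr5b*, on chromosome 1 (121509842 to 121528465, minus strand), encodes the 5-HT5B receptor of rodents. CONTROL-VEH cultures had 0.314, 0.165, 0.320 and 0.154 FPKM and OGD-VEH cultures 0.094, 0.192, 0.084 and 0.085. CONTROL-TIA cultures had 0.414, 0.357, 0.351 and 0.383 FPKM and OGD-TIA cultures 0.173, 0.140, 0.246 and 0.103. The groups were separate with TIA and overlapped through culture 10 with vehicle. *Htr5b* fell by 0.76 ± 0.17 over both arms in the fit without the minimum (limma, padj = 0.013, exact permutation p = 0.00122), on a median of 8.0 estimated reads per culture.

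Both Gq/11-coupled receptors fell over both arms. *Htr2a*, on chromosome 14 (74640840 to 74709494, plus strand), encodes 5-HT2A, the main excitatory serotonin receptor of cortical pyramidal neurons. CONTROL-VEH cultures had 1.35, 1.45, 1.14 and 1.17 FPKM and OGD-VEH cultures 0.884, 0.465, 0.584 and 0.579. CONTROL-TIA cultures had 1.44, 1.45, 1.36 and 1.81 FPKM and OGD-TIA cultures 0.845, 0.939, 0.876 and 0.742. The lowest control exceeded the highest OGD culture. The level after OGD was 49.2% of control with vehicle and 56.1% with TIA. *Htr2a* fell by 0.85 ± 0.14 over both arms (limma, padj = 0.00141), the smallest adjusted p of the 10 receptors, and its exact permutation p of 0.000408 was the smallest that 4900 assignments can give. The log2 fold change was -0.94 (limma, padj = 0.0545) with vehicle and -0.76 (limma, padj = 0.116) with TIA, each with an exact permutation p of 0.0286, the smallest for 4 against 4 cultures.

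*Htr2c*, on chromosome X (146962513 to 147197277, plus strand), encodes 5-HT2C and showed the widest spread between OGD cultures. CONTROL-VEH cultures had 3.26, 2.95, 2.85 and 3.08 FPKM, and OGD-VEH cultures 3.49, 0.731, 0.962 and 0.794. Culture 9 was thus above every vehicle control and the other 3 were below 1 FPKM. CONTROL-TIA cultures had 3.05, 2.96, 2.41 and 3.11 FPKM and OGD-TIA cultures 2.59, 2.03, 2.18 and 1.01. *Htr2c* fell by 0.94 ± 0.27 over both arms (limma, padj = 0.0188, exact permutation p = 0.00776). With vehicle the log2 fold change was -1.27 with an interval of -2.28 to -0.26 (limma, padj = 0.0862), and without culture 9 it was -1.76 (limma, padj = 0.00229). With TIA it was -0.61 (limma, padj = 0.263).

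The *Htr2c* value of culture 9 rested in part on 1 short isoform. Htr2c-203, of 809 bases, had 0.991 FPKM in culture 9 and at most 0.485 FPKM in the other 15 cultures. Without it, culture 9 had 2.50 FPKM against 2.36 to 3.03 in CONTROL-VEH, which put it within the control range. When isoforms were weighted by their length, so that the values follow reads, it had 2.81 FPKM.

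Among the Gs-coupled receptors, *Htr7* passed the test and *Htr6* did not. *Htr7*, on chromosome 19 (35958734 to 36057507, minus strand), encodes 5-HT7. CONTROL-VEH cultures had 1.39, 1.0, 1.39 and 1.41 FPKM and OGD-VEH cultures 0.696, 0.402, 0.628 and 0.305. CONTROL-TIA cultures had 1.62, 1.26, 1.16 and 1.40 FPKM and OGD-TIA cultures 0.876, 0.798, 0.895 and 0.308. No OGD culture reached any control in either arm, and the means after OGD were 39.2% and 52.8% of control. *Htr7* fell by 1.08 ± 0.21 over both arms (limma, padj = 0.00349, exact permutation p = 0.000408). With vehicle it fell by 1.24 ± 0.31 (limma, padj = 0.0461), and the adjusted p lay between 0.077 and 0.123 when any 1 of the 7 cultures other than culture 9 was left out, and at 0.0149 without culture 9. With TIA the log2 fold change was -0.91 ± 0.32 (limma, padj = 0.195).

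*Htr6*, on chromosome 4 (139061108 to 139075570, minus strand), encodes 5-HT6, a receptor of neuronal primary cilia. CONTROL-VEH cultures had 2.97, 3.15, 3.35 and 2.80 FPKM and OGD-VEH cultures 3.21, 2.84, 2.69 and 2.15. CONTROL-TIA cultures had 3.68, 3.61, 3.48 and 4.16 FPKM and OGD-TIA cultures 3.85, 3.41, 3.98 and 2.74. Both pairs overlapped. The log2 fold change over both arms was -0.14 with an interval of -0.36 to 0.08 (limma, padj = 0.317), so a fall of more than 0.36 on this scale lay outside the interval. *Htr6* made up 21.3% of the summed receptor FPKM in CONTROL-VEH (19.8 to 23.1%) and 35.2% in OGD-VEH (25.4 to 42.4%), and 24.1% and 31.4% in CONTROL-TIA and OGD-TIA.

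*Htr4*, on chromosome 18 (62324204 to 62496577, plus strand), encodes 5-HT4. It ranged from 0.276 to 0.288 FPKM in CONTROL-VEH and from 0.049 to 0.143 in OGD-VEH, which were separate, and from 0.239 to 0.357 in CONTROL-TIA and 0.063 to 0.253 in OGD-TIA, which overlapped. *Htr4* fell by 0.73 ± 0.18 over both arms in the fit without the minimum (limma, padj = 0.0168, exact permutation p = 0.000816).

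Single OGD cultures differed in how far the receptors were from control. Against the mean of the controls of the same arm, the median log2 difference of the 10 receptors was -0.37, -0.90, -0.81 and -1.29 in OGD-VEH cultures 9 to 12 and -0.41, -0.50, -0.32 and -1.08 in OGD-TIA cultures 13 to 16. Culture 12 was the lowest of its group for 7 of 10 receptors and culture 16 for 10 of 10, whereas culture 9 was the highest of its group for 8. The neuron markers were also lowest in cultures 12 and 16, and the median log2 difference of the 9 markers was -0.26, -0.84, -0.76 and -1.76 with vehicle and -0.13, -0.21, -0.24 and -1.01 with TIA. The 7 oligodendrocyte-lineage markers went the other way, with medians of 0.02, 1.54, 1.38 and 1.55 and of 0.30, 0.65, 0.22 and 1.05.

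**Figure D3:**
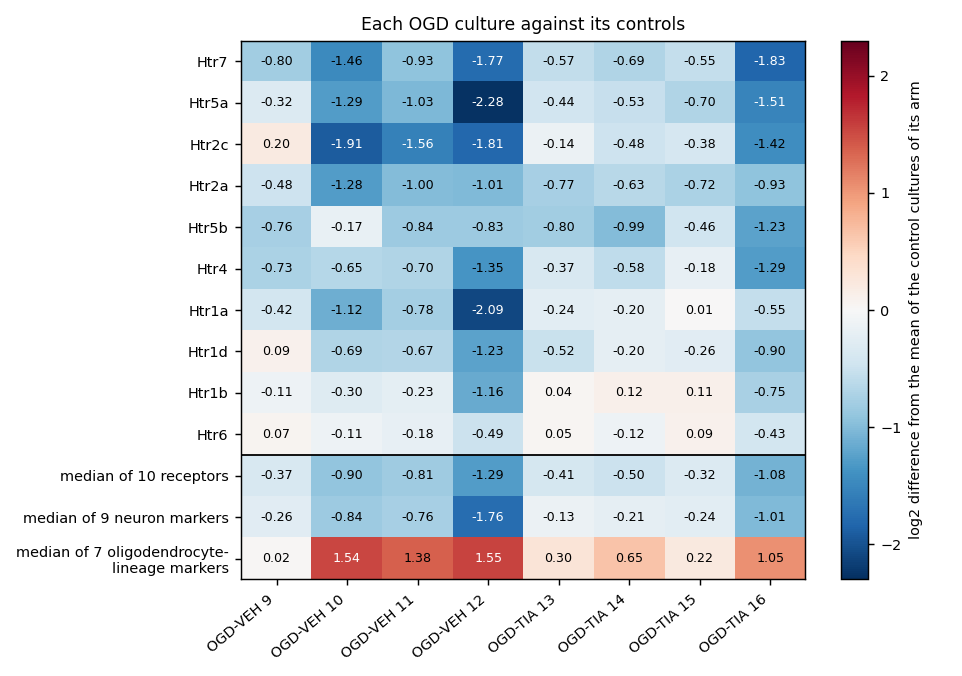
Log2 difference of FPKM + 0.1 between each of the 8 OGD cultures (columns) and the mean of the 4 controls of its arm, for each receptor (rows, colour and printed value), with medians of the receptors and of 2 marker lists below the line. Cultures 12 and 16 are the darkest columns of their arms, culture 9 is pale, and the neuron markers are lowest in the same cultures 12 and 16.

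Marker values of the same cultures are given here beside the receptor results. Of the 16342 genes tested over both arms, 2234 (13.7%) fell and 3076 rose at an adjusted p of 0.05. Over both arms, 7 of the 9 neuron markers fell and 0 rose (median log2 fold change -0.64), and 4 of 6 measured oligodendrocyte-lineage markers rose and 1 fell (median 1.01). The summed neuron marker level was 2860 to 3330 FPKM in CONTROL-VEH, 1150 to 2560 in OGD-VEH, 2890 to 2980 in CONTROL-TIA and 1640 to 2830 in OGD-TIA. The summed oligodendrocyte-lineage level was 174 to 209, 239 to 667, 155 to 190 and 221 to 432 FPKM in the same order, with *Mog* below 0.1 FPKM. Other marker lists moved as well over both arms. Of 9 interneuron markers 6 fell and 1 rose (median -0.91), and of 7 glutamatergic neuron markers 5 fell (median -0.53). Of 7 progenitor markers 4 rose (median 0.79), and of 7 astrocyte markers 1 rose (median 0.52). The median of the 10 receptors was -0.745. The part of these shifts in the receptor differences was not tested. Microglia markers summed to at most 3.03 FPKM in any culture.

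TIA was compared with vehicle in control cultures and after OGD, to ask whether the drug itself moved the receptors. No receptor passed either comparison or the test of the difference between arms, and limma called 0.0% of 16196, 0.0% of 16380 and 0.0% of 16342 genes in them. In control cultures 1 of 10 receptors had an unadjusted p under 0.05, 0 of 10 did after OGD, and 1 of 10 did for the difference between arms. Among genes at or above the minimum the shares were 3.85%, 7.9% and 6.06%. *Htr6* was higher in all 4 CONTROL-TIA cultures than in all 4 CONTROL-VEH cultures (3.73 ± 0.300 against 3.07 ± 0.239 FPKM). The log2 fold change was 0.27 with an interval of 0.03 to 0.52 (exact permutation p = 0.0286, limma padj = 0.999). *Htr5b* was separate in the same direction (0.376 ± 0.0287 against 0.238 ± 0.0911 FPKM, limma without the minimum, padj = 0.937). Such a separation with TIA higher was seen for 0.963% of all genes at or above the minimum.

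After OGD, all 10 receptors had higher means with TIA than with vehicle. The 10 varied together across cultures, as given below, and so are not independent observations. Their log2 fold changes ran from 0.25 to 0.74, with a median of 0.405 where the median of all genes was -0.05. The largest was that of *Htr1a*, at 1.80 ± 0.294 against 1.13 ± 0.525 FPKM (0.74 with an interval of -0.09 to 1.56, limma padj = 0.551). *Htr6* had 3.50 ± 0.559 against 2.72 ± 0.442 FPKM (0.35, interval -0.08 to 0.78, limma padj = 0.551). No pair of groups was separate, and the smallest exact permutation p was 0.0571, for *Htr1a*. The neuron markers also had a median log2 fold change of 0.52 in this comparison, and 0 of 9 passed.

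The 26 isoforms showed which transcripts the receptor values came from. *Htr1a*, *Htr2a*, *Htr4*, *Htr5a* and *Htr5b* have 1 isoform each in the table. All of the *Htr1b* value came from the longer Htr1b-202, and Htr1b-201 was listed at 0 in every culture. Most of the *Htr6* value came from Htr6-202. Both isoforms of each of these genes encode the same number of residues in the annotation.

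For *Htr2c*, the value was divided mainly between Htr2c-201, which holds the edited stretch printed above, and Htr2c-207, which lacks it. Htr2c-207 had 0, 0.859, 0.027 and 1.45 FPKM in the CONTROL-VEH cultures, from 0 to 46.9% of the gene's value. It had 0.990 to 1.47 FPKM in CONTROL-TIA, 0.400 to 1.24 in OGD-VEH and 0.402 to 1.01 in OGD-TIA. Since it ranged from 0 to the second highest value within 1 group, no difference in its share between groups is drawn. Htr2c-201 was 1.68 FPKM on average in CONTROL-VEH (1.03 to 2.36), 0.432 in OGD-VEH (0.228 to 0.923), 1.24 in CONTROL-TIA (0.953 to 1.57) and 0.876 in OGD-TIA (0.445 to 1.33). The vehicle groups of Htr2c-201 were separate, and culture 9, at 0.923, was below all its controls for this isoform. The enzymes that edit the stretch, *Adar* and *Adarb1*, and their relative *Adarb2* did not pass in any OGD comparison, with log2 fold changes over both arms of 0.02, -0.17 and 0.03.

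*Htr7* was divided among more isoforms. Htr7-202, with 1344 coding bases, averaged 0.454 FPKM in CONTROL-VEH and 0.198 in OGD-VEH, and Htr7-205, with 1305 coding bases, 0.277 and 0.0882. Htr7-204, annotated as a target of nonsense-mediated decay, averaged 0.328 and 0.141 FPKM. The mean of each of these 3 isoforms was lower after OGD in both arms. In the TIA arm they averaged 0.393 and 0.329, 0.195 and 0.096, and 0.548 and 0.171 FPKM.

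**Figure D4:**
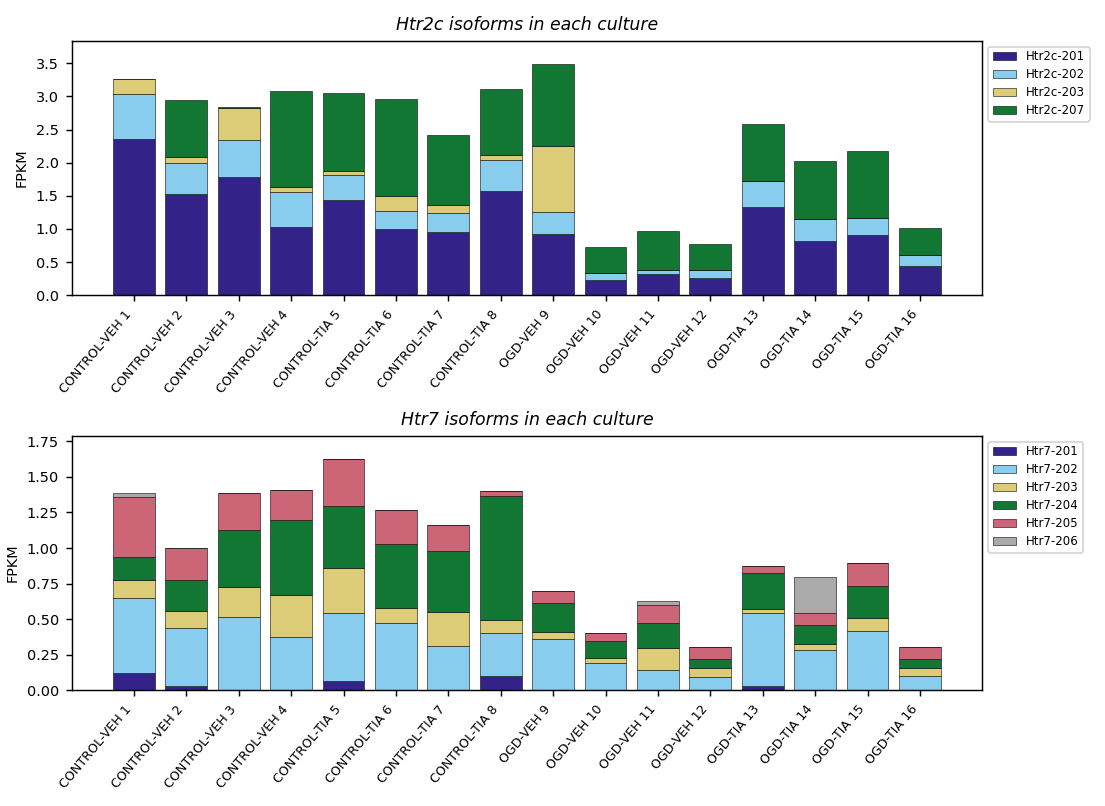
FPKM of the isoforms of *Htr2c* (top) and *Htr7* (bottom) as stacked bars, 1 bar per culture, for isoforms above 0.02 FPKM in any culture. Htr2c-207 is missing or nearly missing from 2 of the 4 CONTROL-VEH bars and present in the other 14 bars, and the whole *Htr7* bar is shorter in every OGD culture than in any control.

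The remaining serotonin receptors served as a comparison within the family. *Htr3a*, a subunit of the ligand-gated 5-HT3 channel, had 2.71 ± 0.414 FPKM in CONTROL-VEH and 2.79 ± 0.736 in OGD-VEH, and 2.45 ± 0.612 and 2.09 ± 0.302 in the TIA arm. Its log2 fold change over both arms was -0.09 with an interval of -0.40 to 0.23 (limma, padj = 0.675). *Htr1f*, a Gi/o-coupled receptor, ranged from 0.135 to 0.729 FPKM over all cultures (-0.10 over both arms, limma without the minimum, padj = 0.836). *Htr2b* and *Htr3b* did not exceed 0.123 and 0.039 FPKM, about 2 estimated reads, and their differences were not detectable at this depth.

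The genes through which the receptors signal were read from the same fits. Of all 16342 genes tested over both arms, 2234 (13.7%) fell and 3076 rose. DEGs with lower levels numbered 327 and those with higher levels 455. Over both arms, 2 of 3 measured GIRK channel genes were DEGs, *Kcnj6* (log2 fold change -1.04, limma padj = 0.00292) and *Kcnj9* (-1.11, limma padj = 0.00125), and all 3 fell. With vehicle *Kcnj9* went from 4.87 to 2.20 FPKM and *Kcnj6* from 2.47 to 1.06 FPKM, and both were DEGs there too (limma padj = 0.0447 and 0.0479). Of 8 measured adenylyl cyclases 6 fell over both arms, and *Adcy7* was the 1 DEG (-1.10, limma padj = 0.002). Among the α subunits, 2 of 5 of the Gi/o group fell and *Gnai3* rose (0.39, limma padj = 0.00141), both Gs genes fell (*Gnas* by 0.12 and *Gnal* by 0.54 on the log2 scale) and *Gnaq* fell by 0.40.

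Of the 8 cyclic AMP effectors, 3 fell and *Rapgef3*, a cyclic AMP-activated exchange factor, was a DEG with higher levels (1.41, limma padj = 0.0432). *Plcb3* was the 1 of 3 measured phospholipase C β genes that passed, and it rose (0.54, limma padj = 0.041). Of 13 receptor partners and desensitization genes 6 fell, among them *Grk3* (-0.69, limma padj = 0.000929), a kinase that phosphorylates active receptors, and *Arrb1* (-0.55, limma padj = 0.00239). *S100a10*, which encodes p11, a protein that brings 5-HT1B and 5-HT4 to the membrane, rose (0.51, limma padj = 0.0127). Of 6 regulators of *Htr1a* transcription, *Deaf1* and *Nr3c2* fell and *Rest* rose.

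Of the 10 genes for serotonin synthesis, transport and breakdown, 2 reached the minimum over all cultures. *Slc29a4*, a monoamine transporter, and *Maoa*, which breaks serotonin down, did not pass over both arms (limma padj = 0.219 and 0.355). Under the minimum, *Slc22a3*, an organic cation transporter that also carries serotonin, had 0.517 and 0.622 FPKM in the 2 control groups and 0.138 and 0.168 after OGD. Its log2 fold change was -1.39 (limma without the minimum, padj = 0.00222). No list gene passed in the TIA arm alone.

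Across the 16 cultures the receptors varied together. Over the 45 pairs of the 10 genes, Pearson's r of log2(FPKM + 0.1) ranged from 0.55 to 0.95, with a median of 0.81. These are descriptions, since all points share the OGD difference and the same libraries. Of 12526 protein-coding genes averaging 1 FPKM or more, the pattern most like *Htr5a* was that of *Oxtr*, the oxytocin receptor (r = 0.993), followed by *Pcdhac2* (0.984) and *Slc7a14* (0.983). *Oxtr* averaged 1.58, 1.78, 0.635 and 0.963 FPKM in the order CONTROL-VEH, CONTROL-TIA, OGD-VEH, OGD-TIA, close to the 1.77, 2.01, 0.780 and 1.15 FPKM of *Htr5a*.

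The nearest genes were *Psd*, *Serpini1* and *Dlg2* for *Htr1a* (r = 0.974, 0.973 and 0.969), and *Srgap1*, *Lmtk2* and *Kcnk9* for *Htr1b* (0.973, 0.968 and 0.962). They were *5730409E04Rik*, *Pabpc5* and *Tmem132d* for *Htr2a* (0.980, 0.972 and 0.969), and *Nxph2*, *Sv2a* and *Igsf21* for *Htr2c* (0.977, 0.974 and 0.971). For *Htr7* they were *Zmiz2*, *Cnr1*, the cannabinoid receptor 1, and *Wdr6* (0.960, 0.959 and 0.958). The genes nearest to *Htr6* were less alike, with *Wdr47*, *Klhl23* and *Dnah7a* at 0.909, 0.904 and 0.903.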

How the data were processed

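RNA-seq of 16 cultures, 4 per group, was used. The authors used a stranded mRNA library kit, single-end reads of 50 bases were mapped to GRCm38 with STAR, and isoform levels were estimated with eXpress. The deposited values are FPKM per isoform after TMM scaling, as named by the table. The DESeq2 counts of the study were not analysed here. Of 135276 lines, 74 without an identifier were left out. FPKM were summed per gene, and depth (19.6 to 25.5 M reads) was estimated from the value of 1 read in genes with a single isoform. Positions of genes and isoforms are from GENCODE M21, and those of the promoter windows from RefSeq.

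The members and gene lists were chosen with earlier results of these data known. Genes averaging 0.5 FPKM or more in the cultures compared were tested with limma 3.58.1 in R 4.3.3 on log2(FPKM + 0.1), with a trend and Benjamini-Hochberg adjustment over all genes. DEGs were genes whose adjusted p did not exceed 0.05 and whose log2 fold change was 1 or more, or -1 or less. Receptors under the minimum were read from the fit without it. A log2 fold change with a pseudocount understates the change of low genes. For single receptors, the mean log2 values were permuted exactly and two-sided (70 ways to divide 8 cultures, or 4900 within both arms), in 50 tests without adjustment. The scripts were tested on simulated data. All 10 members and 4 further receptors were named, and in the other lists the DEGs and genes that passed the adjusted p, or those with the smallest p. For receptors with a mean of 0.5 FPKM or more, the 3 most correlated genes were named. Nothing in the labels says whether cultures came from separate preparations. The p-values set group differences against the spread between these cultures. If the cultures shared a preparation, that spread would leave out differences between preparations. Alternatives were other pseudocounts, minimums, scaling, isoform weighting and fits, and leaving out each culture.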

Additional observations from a re-analysis of the deposited data

Results flagged for a closer look

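In 6 of the 40 sets of 4 values (10 receptors in 4 groups), 1 culture stood far from the other 3, with a gap to the nearest that exceeded Dixon's 95% critical value. Chance flags about 1 in 20 such sets. *Htr2c* was 3.491 FPKM in OGD-VEH culture 9, against 0.731 to 0.962 in the other 3. *Htr7* was 0.308 FPKM and *Htr1b* 0.473 FPKM in OGD-TIA culture 16, the lowest of their group. *Htr4* was 0.049 FPKM in OGD-VEH culture 12 and *Htr5b* 0.192 FPKM in OGD-VEH culture 10, both on fewer than 10 estimated reads. *Htr7* was 1 FPKM in CONTROL-VEH culture 2, against 1.387 to 1.407 in the other 3.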

How the results depend on the processing

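The number of DEGs among the 10 receptors depended on the setting. Between OGD-VEH and CONTROL-VEH it was 1, and it was 0 with a pseudocount of 1, with no minimum and with minimums of 0.1 or 2 FPKM, 3 with isoforms weighted by length, and 4 with array quality weights or all 16 cultures in one fit. Leaving out single cultures gave 0 to 5, with 5 (*Htr1a*, *Htr2a*, *Htr2c*, *Htr5a*, *Htr7*) without culture 9 and 0 without any other. The number of all genes called lower moved as well, from 275 in the main fit. It was 220 with a pseudocount of 1, 10 with no minimum, and 160 and 285 with minimums of 0.1 and 2 FPKM. It was 440 with length weighting, 789 with array quality weights and 662 with all 16 cultures in one fit. Without culture 9 it was 1001, and without any other culture 0 to 28. Over both arms 2 receptors were DEGs, and the number was 0 with a pseudocount of 1 or array quality weights and 4 with a pseudocount of 0.01. Leaving out single cultures gave 0 to 3, with 0 without culture 12 or 16, 1 (*Htr7*) without culture 1, 2, 3, 6 or 8, and 3 (*Htr2c*, *Htr5a* and *Htr7*) without culture 9 or 13. The number of receptor DEGs stayed at 0 in the other 4 comparisons under every alternative. The number of all genes called did not. With array quality weights 145 genes were called higher and 262 lower between OGD-TIA and OGD-VEH. Between OGD-TIA and CONTROL-TIA, 49 were higher and 31 lower with these weights, and 23 and 38 with length weighting. Array quality weights called 0 genes between CONTROL-TIA and CONTROL-VEH and for the difference between arms. *Htr1a*, *Htr2a*, *Htr2c*, *Htr4*, *Htr5a*, *Htr5b* and *Htr7* kept an adjusted p of at most 0.05 over both arms under all 9 alternatives and without any 1 of the 16 cultures. *Htr1d* did so under 3 of the 9 and without 1 of the 16. In the comparisons of OGD with control, only *Htr2c* and *Htr6* reached the minimum of 2 FPKM. The other receptors were then read from the fit without a minimum, so for them both settings give the same result.

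The sign turned 8 times, each with a small value. In OGD-TIA against CONTROL-TIA, *Htr1b* was 0.06 with array quality weights, and with single cultures left out it was -0.20 to 0.09 and *Htr6* -0.17 to 0.01, both highest without culture 16. In CONTROL-TIA against CONTROL-VEH, *Htr2c* was -0.11 to 0, the latter without culture 7, and *Htr7* -0.04 to 0.14, below 0 without culture 2 or 5 (-0.01). In the difference between arms, *Htr1d* was -0.05 to 0.39 and *Htr6* -0.03 to 0.18, both lowest without culture 12. The cause was not tested. No paired analysis was possible because the cultures are numbered 1 to 16 and no number is shared between groups. Low depth limits *Htr1d*, *Htr4* and *Htr5b* most.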
